A study of Homo sapiens with 12 samples.

Results

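The 37 genes described here work in homologous recombination and in the Fanconi anemia pathway, and they were chosen by name: each row of the deposited gene table whose gene name is on the list is a member. All 37 were found among the 57773 genes of the table, and all 37 were among the 20571 genes with enough reads to test. Transcripts were measured by RNA sequencing in 12 libraries of MDA-MB-231 cells, a widely used human cancer line that models triple-negative breast tumours. Each of 4 groups had 3 libraries: cells given TGFβ for 48 h (TGFB), cells given alisertib for 48 h (ALIS), cells given both agents for 48 h (Combination) and cells with no treatment (CTL). TGFβ is a cytokine whose receptors act through SMAD transcription factors, and alisertib is a drug that blocks Aurora A, a kinase of the mitotic spindle. The sources used here give no dose, all cells were of a single line, and no vehicle control is named. Whether the libraries of a group stem from independent cultures is not stated, and the p-values therefore reflect the spread between libraries alone, which may be technical.

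Homologous recombination repairs a broken chromosome by copying the sister DNA molecule, and it works mainly in S and G2 phase. Checkpoint kinases sense the break or the stalled fork, nucleases trim the ends to single strands, the BRCA proteins prepare those strands for exchange, and paralog complexes and cofactors assist the invasion of the sister duplex. The Fanconi proteins handle crosslinks between the DNA strands: a core complex attaches ubiquitin to the FANCD2 and FANCI pair, which then directs the incision and the repair by recombination. Cells without BRCA1 or BRCA2 function are known to be sensitive to crosslinking drugs and to inhibitors of PARP1.

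Most of these genes were lower in treated cells, by modest amounts. With the Combination, 27 of the 37 fell and 1 rose against CTL. With TGFB, 21 fell and 1 rose, and with ALIS, 12 fell and none rose. Single libraries weighed on the smaller counts: without TGFB 4 or TGFB 5, 12 or 14 members were called with TGFB, and without CTL 3 or ALIS 8, 7 or 5 were called with ALIS. The share of all tested genes called was 31.1% or 30.9% in those TGFB fits and 3.47% or 3.44% in those ALIS fits. A change is called here at an adjusted p under 0.05, from the quasi-likelihood test of edgeR with Benjamini-Hochberg adjustment over all tested genes. Levels within a gene are given as CPM, read counts made comparable between libraries with TMM factors. Changes are log2 fold changes ± SE.

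Of all tested genes, 39.7% were called for the Combination against CTL (20.3% lower and 19.4% higher). For TGFB against CTL the share was 38.6% (20.1% lower and 18.5% higher), and for ALIS against CTL it was 6.74% (3.19% lower and 3.55% higher). In each of the 3 comparisons the members were thus called lower more often than tested genes at large. The median log2 fold change over the 37 members was -0.43 for the Combination, -0.19 for TGFB and -0.18 for ALIS, while the median over all tested genes was 0.00, -0.01 and -0.01. In bulk RNA, fewer cells expressing a gene and less RNA per cell cannot be told apart.

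**Figure D1:**
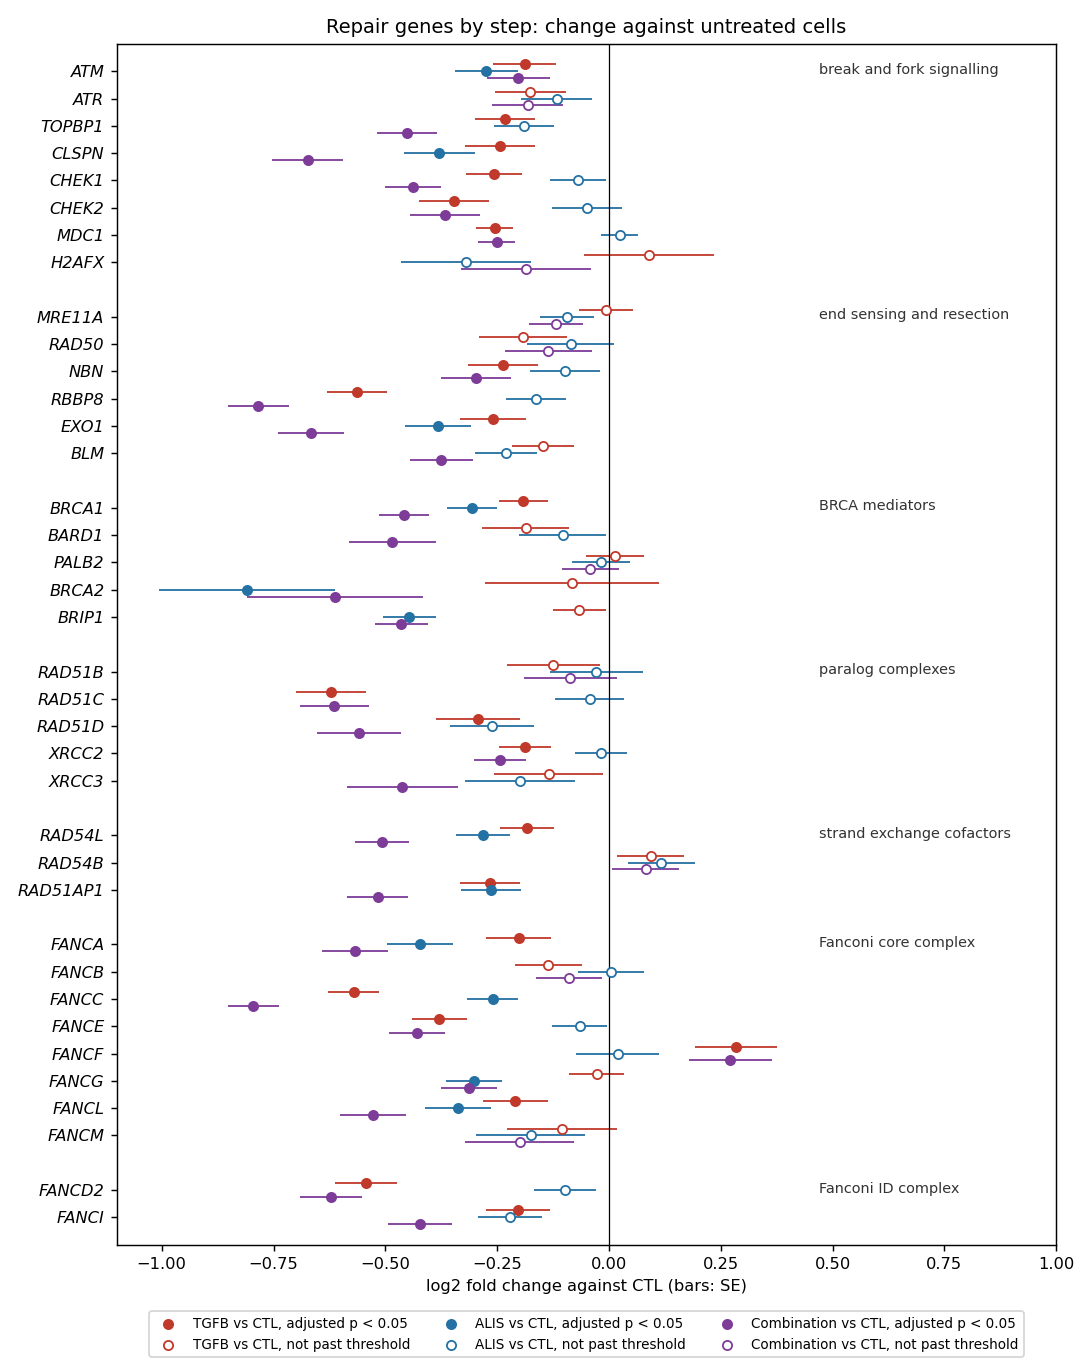
Log2 fold change against CTL for each of the 37 genes, grouped by step of repair, with bars of 1 SE. Filled points passed an adjusted p under 0.05 and open points did not. The Combination points lie left of 0 for 35 of the 37 genes, and RAD54B and FANCF lie right of it.

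Total counts per library were 110282980 to 118220032 in TGFB, 97048328 to 105563951 in ALIS, 105921831 to 120619368 in the Combination and 93701658 to 100328721 in CTL. A single library per group, namely TGFB 6, ALIS 9, Combination 10 and CTL 1, differed from the other libraries of its group. Across 11306 genes their deviations from the group mean correlated with each other at 0.716 to 0.865, and with the GC content of the gene at a Spearman rho of -0.788 to -0.725, as a description across genes. Of the 37 members, 25 lay above the group mean in TGFB 6, 28 in ALIS 9, 28 in Combination 10 and 26 in CTL 1. Without these 4 libraries, a setting added after the data were seen, 22 members were called lower and 2 higher with TGFB, 15 and 1 with ALIS, and 28 and 2 with the Combination, each against CTL. The share of all tested genes called in that fit was 45.3%, 24.5% and 47.4% in the same order, above the shares with all libraries. The line's markers VIM and CD44 were high, at 1223 to 2133 and 1120 to 1902 CPM, and the hormone receptors ESR1 and PGR were at most 0.0422 CPM. ERBB2, the other receptor that defines triple-negative tumours, was present at 48.5 to 73.2 CPM. The epithelial markers EPCAM and CDH1 had 12.7 to 19.7 and 1.55 to 5.88 CPM. Among luminal markers FOXA1 was at most 0.0581 CPM, but GATA3 had 3.35 to 7.58 and KRT19 77.8 to 194 CPM. The leukocyte markers PTPRC and CD3E, the endothelial markers VWF and CDH5 and the fibroblast marker DCN were at most 0.18 CPM in every library. CD14 of the leukocyte list reached 2.90, KDR of the endothelial list 3.19 and LUM of the fibroblast list 2.14 CPM. PDGFRB, also of the fibroblast list, averaged 50.3 CPM in TGFB, 11.7 in ALIS, 37.9 in the Combination and 14.4 in CTL. The summed level of the 4 fibroblast markers was 50.6 to 54.5 CPM in TGFB, 11.3 to 14.4 in ALIS, 34.9 to 42.7 in the Combination and 13.8 to 16.7 in CTL. The summed level of the 4 leukocyte markers was 1.01 to 1.16 CPM in TGFB, 1.497 to 1.93 in ALIS, 0.867 to 0.961 in the Combination and 1.46 to 3.16 in CTL, and that of 3 endothelial markers was 0.974 to 1.30, 2.82 to 3.26, 1.30 to 1.67 and 2.20 to 2.67 CPM in the same order. Their part in the results was not tested.

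The promoters of 6 members are shown as examples of the patterns of calls described below: CLSPN and EXO1 were lower with either agent, and BRIP1 and FANCG were lower with ALIS and not called with TGFB. RAD51C and FANCD2 were lower with TGFB and not called with ALIS. Each window runs from 250 bases before to 50 bases after the start of the gene in RefSeq (GRCh38.p14), written 5′ to 3′ on the strand of the gene. Capitals mark 2 motifs searched on both strands: the letters TTTCGCGC, TTTGGCGC, TTTCCCGC and TTTGCCGC, which resemble sites of the E2F factors of S phase, and the letters CCAAT. The windows are chr1:35769929-35770228 (minus strand) for CLSPN, chr1:241847954-241848253 (plus) for EXO1, chr17:61863479-61863778 (minus) for BRIP1, chr9:35079893-35080192 (minus) for FANCG, chr17:58692323-58692622 (plus) for RAD51C and chr3:10026187-10026486 (plus) for FANCD2.
CLSPN: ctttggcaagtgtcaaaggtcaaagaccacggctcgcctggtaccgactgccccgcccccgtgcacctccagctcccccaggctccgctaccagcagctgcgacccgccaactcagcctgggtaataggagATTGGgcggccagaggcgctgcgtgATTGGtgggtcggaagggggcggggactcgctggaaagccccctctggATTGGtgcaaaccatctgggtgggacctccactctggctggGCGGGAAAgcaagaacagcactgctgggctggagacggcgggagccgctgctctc
EXO1: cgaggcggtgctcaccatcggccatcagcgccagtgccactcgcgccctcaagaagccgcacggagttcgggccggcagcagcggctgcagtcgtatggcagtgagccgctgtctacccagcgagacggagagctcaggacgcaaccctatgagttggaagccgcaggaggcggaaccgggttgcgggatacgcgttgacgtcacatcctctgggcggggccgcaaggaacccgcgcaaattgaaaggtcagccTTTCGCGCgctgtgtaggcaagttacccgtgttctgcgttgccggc
BRIP1: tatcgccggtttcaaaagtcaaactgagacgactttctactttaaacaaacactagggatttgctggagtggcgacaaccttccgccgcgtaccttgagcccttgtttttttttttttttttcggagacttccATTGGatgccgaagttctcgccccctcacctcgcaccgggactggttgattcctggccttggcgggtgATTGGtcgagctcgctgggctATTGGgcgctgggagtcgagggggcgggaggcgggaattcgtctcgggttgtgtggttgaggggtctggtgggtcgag
FANCG: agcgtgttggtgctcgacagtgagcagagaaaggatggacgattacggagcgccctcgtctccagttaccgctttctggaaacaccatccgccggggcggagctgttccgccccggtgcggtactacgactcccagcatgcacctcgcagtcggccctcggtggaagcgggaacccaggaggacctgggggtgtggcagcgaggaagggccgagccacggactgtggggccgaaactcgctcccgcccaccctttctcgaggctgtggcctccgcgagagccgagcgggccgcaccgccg
RAD51C: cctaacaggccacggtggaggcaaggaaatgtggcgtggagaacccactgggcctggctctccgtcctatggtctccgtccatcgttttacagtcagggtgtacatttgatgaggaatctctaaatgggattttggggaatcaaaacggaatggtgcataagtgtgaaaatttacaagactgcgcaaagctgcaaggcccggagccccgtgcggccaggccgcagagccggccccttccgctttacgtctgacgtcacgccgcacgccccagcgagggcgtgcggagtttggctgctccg
FANCD2: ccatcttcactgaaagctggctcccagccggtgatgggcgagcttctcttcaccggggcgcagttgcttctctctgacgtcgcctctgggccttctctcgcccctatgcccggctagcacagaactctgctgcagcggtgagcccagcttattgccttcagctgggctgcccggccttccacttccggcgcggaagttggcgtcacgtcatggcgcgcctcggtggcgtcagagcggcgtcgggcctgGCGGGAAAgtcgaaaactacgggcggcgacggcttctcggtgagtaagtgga

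A match of letters is a description and not a binding site. RefSeq windows were found for 34 of the 37 members, and a gene is counted if any of its windows holds the letters. EXO1 and RAD51C have 2 windows each, of which the first is printed, and the other window of EXO1 holds no E2F letters. The E2F letters stood in 7 of the 34 (20.6%), against 3.99% of 27305 genes with a window: TOPBP1, CLSPN, EXO1, XRCC2, FANCA, FANCC and FANCD2. Their positions in the printed windows, counted as bases from the start site, began at -5 in CLSPN, at 4 in EXO1 and at -2 in FANCD2. CCAAT stood in 17 of the 34 (50%) against 39.7% of all genes, and CLSPN and BRIP1 each held 3 copies. As many or more stood in members not called with ALIS: 3 in CHEK2, BLM and 1 window of CHEK1, 4 in H2AFX and 5 in XRCC3. The letters TTTGAA or TTTAAA, which resemble the CHR element of genes active in G2 and M phase, stood in 8 of the 34 (23.5%) against 27.9% of all genes. Genes with the E2F letters occur in more than 1 pattern of calls: CLSPN, EXO1, FANCA and FANCC were lower with either agent, and TOPBP1, XRCC2 and FANCD2 were called with TGFB and not with ALIS. These patterns are not tested differences: TOPBP1 had -0.04 for TGFB against ALIS and was not called there. The TGFB call of XRCC2 was lost when GC content and length entered as an offset.

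Signalling at breaks and stalled forks involves 8 members. Of these, 6 fell with TGFB, 2 with ALIS and 6 with the Combination, each against CTL. CLSPN encodes claspin, the adaptor through which ATR activates CHEK1 at stalled forks. It had 90.5, 84.6 and 92.02 CPM in TGFB, 80.2, 78.2 and 84.8 CPM in ALIS and 70.7, 65.8 and 61.9 CPM in the Combination, against 121, 97.02 and 98.4 CPM in CTL. All 9 treated libraries lay below all 3 CTL libraries, and the Combination lay lowest, without overlap with either single agent. The log2 fold change against CTL was -0.24 ± 0.08 with TGFB (adjusted p = 0.024), -0.38 ± 0.08 with ALIS (adjusted p = 0.0105) and -0.67 ± 0.08 with the Combination (adjusted p = 8.15e-06). The TGFB change was not called without CTL 1, TGFB 4 or TGFB 5 (adjusted p up to 0.101), and with ALIS it was not called without ALIS 8 (adjusted p up to 0.0591).

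CHEK1, the effector kinase that CLSPN helps to activate, followed TGFB. It had 78.3, 77.2 and 84.7 CPM in TGFB, 89.4, 88.98 and 95.2 CPM in ALIS and 73.8, 69.5 and 68.7 CPM in the Combination, against 105, 92.1 and 89.97 CPM in CTL. TGFB and Combination libraries lay below all CTL libraries, whereas ALIS overlapped CTL. On the log2 scale the change was -0.26 ± 0.06 with TGFB (adjusted p = 0.00455), -0.07 ± 0.06 with ALIS (adjusted p = 0.605) and -0.44 ± 0.06 with the Combination (adjusted p = 5.85e-05). CHEK2, the effector kinase downstream of ATM, was also low in TGFB and the Combination: it had 12.1, 10.8 and 11.1 CPM in TGFB, 13.9, 13.4 and 14.6 CPM in ALIS and 12.4, 10.9 and 10.3 CPM in the Combination, against 14.7, 14.2 and 14.3 CPM in CTL. Its log2 fold change was -0.35 ± 0.08 with TGFB and -0.37 ± 0.08 with the Combination, and it was -0.05 ± 0.08 with ALIS, which was not called. MDC1, the scaffold that binds phosphorylated H2AX beside a break, varied little within groups: it had 94.4 ± 0.459 CPM in TGFB, 115 ± 0.996 CPM in ALIS, 94.7 ± 2.43 CPM in the Combination and 113 ± 3.36 CPM in CTL (SD, n = 3). Its log2 fold change of -0.26 with TGFB passed at an adjusted p of 0.000157, and its change of 0.02 with ALIS did not pass.

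ATM, the kinase activated by double-strand breaks, had 131, 128 and 131 CPM in TGFB, 109.6, 124 and 134 CPM in ALIS and 138, 128 and 120.3 CPM in the Combination, against 153, 139 and 153 CPM in CTL. All treated libraries lay below CTL, but the 3 treated groups overlapped each other. Against CTL its change was -0.19 ± 0.07 with TGFB (adjusted p = 0.0486), -0.27 ± 0.07 with ALIS (adjusted p = 0.0341) and -0.20 ± 0.07 with the Combination (adjusted p = 0.0343). None of the 3 calls held throughout: with TGFB it was not called without CTL 1, CTL 3, TGFB 4, TGFB 5 or TGFB 6 (adjusted p up to 0.135), with ALIS not called without CTL 1, CTL 3, ALIS 7 or ALIS 8 (adjusted p up to 0.128) and with the Combination not called without CTL 1, CTL 3, Combination 11 or Combination 12 (adjusted p up to 0.118). TOPBP1, an activator of ATR, fell, at -0.23 with TGFB and -0.45 with the Combination and had -0.19 with ALIS, which was not called. Its call with TGFB was lost without TGFB 4. ATR, the kinase of stalled forks, was called in none of the 3 comparisons, with log2 fold changes of -0.18, -0.12 and -0.18 for TGFB, ALIS and the Combination. Of the exon bases of ATR, 16.4% are shared with another annotated gene (GENCODE v29), whose reads cannot be told apart in this unstranded kit.

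H2AFX encodes the histone H2AX that is phosphorylated around breaks. It had 35.3, 35.8 and 27.9 CPM in TGFB, 28.3, 24.1 and 22.2 CPM in ALIS and 22.5, 30.1 and 29.04 CPM in the Combination, against 24.6, 35.02 and 33.3 CPM in CTL. The groups overlapped, and the lowest library of each group was the one that stands apart, TGFB 6, ALIS 9, Combination 10 and CTL 1. Its GC content of 66.4% was the highest among the members. Changes against CTL were 0.09 ± 0.15 with TGFB, -0.32 ± 0.15 with ALIS and -0.19 ± 0.15 with the Combination, and none was called. When GC content and length entered as an offset, the change with TGFB turned to -0.36 (adjusted p = 1.79e-05), so these libraries give no settled direction for H2AFX.

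End sensing and resection involves 6 members, of which 3 fell with TGFB, 1 with ALIS and 4 with the Combination. The largest change was that of RBBP8, which encodes CtIP, the cofactor that starts resection with the MRE11 nuclease. It had 56.2, 54.8 and 57.3 CPM in TGFB, 72.9, 70.3 and 78.8 CPM in ALIS and 51.2, 46.4 and 46.8 CPM in the Combination, against 91.7, 77.9 and 79.00 CPM in CTL. TGFB and Combination libraries lay below every ALIS and CTL library, the Combination lay below TGFB in all libraries, and ALIS overlapped CTL. Relative to CTL the change was -0.56 ± 0.07 with TGFB (adjusted p = 1.11e-05), -0.16 ± 0.07 with ALIS (adjusted p = 0.189) and -0.78 ± 0.07 with the Combination (adjusted p = 3.62e-07). In hg19 RBBP8 lies on chromosome 18 from 20378224 to 20606451.

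EXO1, the nuclease of long-range resection, differed from RBBP8 in being lower with either agent. It had 39.4, 39.1 and 40.5 CPM in TGFB, 36.5, 35.8 and 36.9 CPM in ALIS and 32.3, 28.8 and 28.6 CPM in the Combination, against 53.8, 44.96 and 43.7 CPM in CTL. The Combination was lowest, both single agents lay between it and CTL, and no treated library reached the CTL range. Log2 fold changes were -0.26 ± 0.07 with TGFB (adjusted p = 0.0126), -0.38 ± 0.07 with ALIS (adjusted p = 0.00673) and -0.67 ± 0.07 with the Combination (adjusted p = 5.01e-06). BLM, the helicase that unwinds ends for resection and dissolves joint molecules, passed with the Combination at -0.37 ± 0.07, while its values with TGFB and ALIS, -0.15 and -0.23, did not pass.

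The 3 subunits of the MRN complex, which tethers ends and recruits ATM, did not move as 1 unit. NBN fell, at -0.24 with TGFB and -0.30 with the Combination, and with TGFB it was not called without CTL 1, TGFB 4 or TGFB 5 (adjusted p up to 0.119). MRE11A, the nuclease subunit, had log2 fold changes of -0.01 ± 0.06 with TGFB, -0.09 ± 0.06 with ALIS and -0.12 ± 0.06 with the Combination, none of them called. RAD50, the tethering ATPase, had -0.19 ± 0.10, -0.09 ± 0.10 and -0.14 ± 0.10 in the same order, none of them called, and 79.7% of its exon bases are shared with other annotated genes.

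The BRCA mediators are 5 members that prepare the resected strand for exchange. With TGFB 1 of the 5 fell, close to the share of all tested genes called lower in that comparison. With ALIS 3 fell, and with the Combination 4. BRIP1, the helicase that binds the BRCT domains of BRCA1, had 52.6, 51.7 and 56.3 CPM in TGFB, 39.2, 41.7 and 42.6 CPM in ALIS and 42.9, 40.1 and 38.9 CPM in the Combination, against 57.4, 52.8 and 57.95 CPM in CTL. All libraries given alisertib, alone or with TGFβ, lay below all TGFB and CTL libraries, and TGFB overlapped CTL. The log2 fold change was -0.07 ± 0.06 with TGFB (adjusted p = 0.414), -0.45 ± 0.06 with ALIS (adjusted p = 0.000533) and -0.46 ± 0.06 with the Combination (adjusted p = 1.94e-05). In hg19 BRIP1 lies on chromosome 17 from 59758627 to 59940882.

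BRCA1, the ubiquitin ligase subunit that directs resection and the steps after it, had 68.1, 67.8 and 70.3 CPM in TGFB, 61.7, 62.9 and 65.9 CPM in ALIS and 59.4, 58.2 and 53.8 CPM in the Combination, against 84.1, 75.7 and 75.7 CPM in CTL. The 4 groups did not overlap, with the Combination lowest and CTL highest. Its log2 fold change was -0.19 ± 0.06 with TGFB (adjusted p = 0.014), -0.31 ± 0.06 with ALIS (adjusted p = 0.00458) and -0.46 ± 0.06 with the Combination (adjusted p = 1.21e-05). With TGFB it was not called without TGFB 4 or TGFB 5 (adjusted p up to 0.0538). BARD1, the partner of BRCA1 in the ligase, fell, at -0.48 with the Combination and had -0.19 with TGFB and -0.10 with ALIS, neither of which was called.

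BRCA2, which acts on the resected single strands, had 25.1, 17.7 and 17.3 CPM in TGFB, 9.39, 11.97 and 14.96 CPM in ALIS and 15.1, 14.4 and 12.2 CPM in the Combination, against 16.3, 20.3 and 26.95 CPM in CTL. The spread was wide, at 20.03 ± 4.42 CPM in TGFB and 21.2 ± 5.37 CPM in CTL (SD, n = 3), but neither ALIS nor the Combination overlapped CTL. The log2 fold change was -0.81 ± 0.20 with ALIS (adjusted p = 0.0257), -0.61 ± 0.20 with the Combination (adjusted p = 0.0228) and -0.08 ± 0.19 with TGFB (adjusted p = 0.773). With ALIS it was not called without CTL 2, CTL 3, ALIS 7 or ALIS 8 (adjusted p up to 0.192), and with the Combination not called without CTL 3, Combination 11 or Combination 12 (adjusted p up to 0.168). With no low-count filter neither call held (adjusted p = 0.167 for ALIS and 0.135 for the Combination). Nor did either hold with the GC and length offset, with a term for the 4 libraries that stand apart or without those 4 libraries (adjusted p = 0.0515 to 0.0898). PALB2, the link between BRCA1 and BRCA2, was close to CTL throughout, with 0.01 ± 0.06 with TGFB, -0.02 ± 0.06 with ALIS and -0.04 ± 0.06 with the Combination. The 95% interval of the last, -0.18 to 0.10, leaves room only for small changes.

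**Figure D2:**
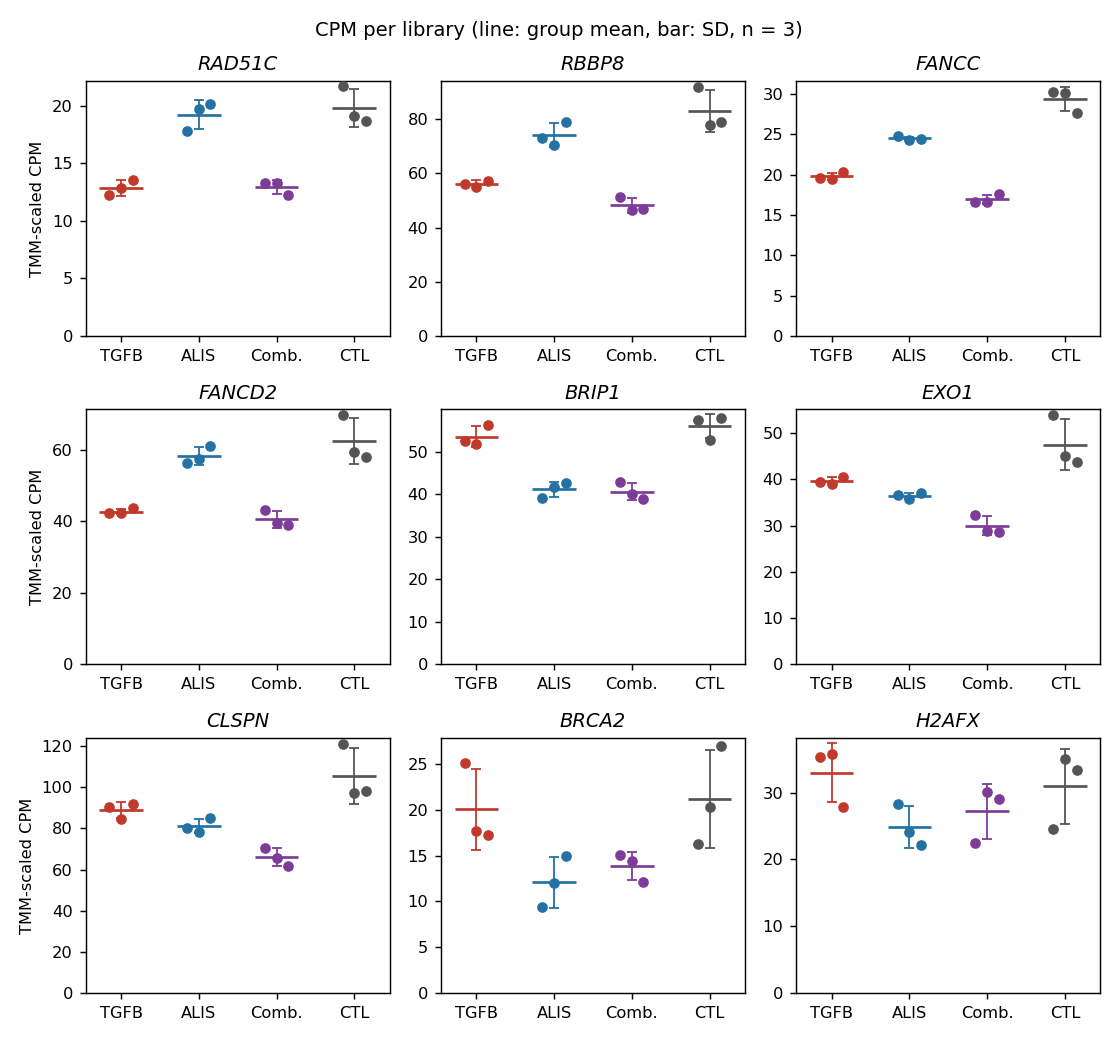
TMM-scaled CPM of 9 genes in every library, with the group mean as a line and the SD as a bar (n = 3), in the order TGFB, ALIS, Combination and CTL. RAD51C, RBBP8 and FANCD2 are low in TGFB and the Combination, BRIP1 is low in ALIS and the Combination, and the BRCA2 and H2AFX groups are wide.

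The paralog complexes comprise 5 members, RAD51B, RAD51C, RAD51D, XRCC2 and XRCC3, which assist strand exchange. With TGFB 3 fell, with ALIS none and with the Combination 4. RAD51C, a subunit of both paralog complexes, had 12.2, 12.8 and 13.6 CPM in TGFB, 17.8, 19.7 and 20.2 CPM in ALIS and 13.3, 13.3 and 12.3 CPM in the Combination, against 21.7, 19.1 and 18.6 CPM in CTL. Libraries given TGFβ, alone or with alisertib, lay together and below all others, and ALIS overlapped CTL. Against CTL the change was -0.62 ± 0.08 with TGFB (adjusted p = 1.63e-05), -0.04 ± 0.08 with ALIS (adjusted p = 0.816) and -0.61 ± 0.08 with the Combination (adjusted p = 1.79e-05). In hg19 RAD51C lies on chromosome 17 from 56769934 to 56811703.

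XRCC2, a subunit of the larger paralog complex, fell, at -0.19 with TGFB and -0.24 with the Combination and had -0.02 with ALIS. The TGFB change was not called without CTL 1, TGFB 4 or TGFB 5 (adjusted p up to 0.0796), and with the GC and length offset it had -0.08 and was not called (adjusted p = 0.0646). RAD51D, the partner of XRCC2, fell, at -0.29 with TGFB and -0.56 with the Combination and had -0.26 with ALIS, which was not called. With TGFB it was not called without CTL 2, TGFB 4 or TGFB 6 (adjusted p up to 0.12), and with the offset its adjusted p was 0.0667. XRCC3, the partner of RAD51C in the smaller complex, fell, at -0.46 with the Combination, but 76.7% of its exon bases are shared with KLC1. RAD51B, at 7.85 ± 0.517 CPM in CTL, was not called in any of the 3 comparisons.

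Among 3 cofactors of strand exchange, RAD54L and RAD51AP1 fell in all 3 comparisons with CTL and RAD54B in none. RAD51AP1, which stimulates the formation of joint molecules, had 35.1 ± 1.10 CPM in TGFB, 35.1 ± 1.54 CPM in ALIS and 29.5 ± 1.98 CPM in the Combination, against 42.2 ± 3.15 CPM in CTL. Its log2 fold change was -0.27 ± 0.07 with TGFB, -0.26 ± 0.07 with ALIS and -0.52 ± 0.07 with the Combination. With ALIS it was not called without CTL 1, CTL 3, ALIS 7 or ALIS 8 (adjusted p up to 0.128). RAD54L, the motor protein that remodels DNA during strand invasion, had -0.18 ± 0.06, -0.28 ± 0.06 and -0.51 ± 0.06 in the same order. The TGFB change was not called without CTL 2, CTL 3 or TGFB 6 (adjusted p up to 0.12), and with ALIS not called without CTL 3 or ALIS 8 (adjusted p up to 0.0784). RAD54L shares 25.1% of its exon bases with LRRC41. RAD54B, a relative of RAD54L, had 0.09 ± 0.07, 0.12 ± 0.07 and 0.08 ± 0.07, and 59.1% of its exon bases are shared with FSBP.

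The Fanconi core complex is represented by 8 members, of which 4 fell and 1 rose with TGFB, 4 fell with ALIS, and 5 fell and 1 rose with the Combination. FANCC, a subunit that joins FANCE and FANCF, was lower with either agent. It had 19.5, 19.5 and 20.3 CPM in TGFB, 24.7, 24.3 and 24.5 CPM in ALIS and 16.6, 16.6 and 17.5 CPM in the Combination, against 30.3, 30.2 and 27.6 CPM in CTL. The 4 groups did not overlap, and the Combination was lowest and TGFB next. Log2 fold changes were -0.57 ± 0.06 with TGFB (adjusted p = 1.61e-06), -0.26 ± 0.06 with ALIS (adjusted p = 0.0142) and -0.79 ± 0.06 with the Combination (adjusted p = 4.77e-08), the last being the largest change of any member in that comparison. With ALIS it was not called without CTL 2, ALIS 8 or ALIS 9 (adjusted p up to 0.0649). In hg19 FANCC lies on chromosome 9 from 97861336 to 98079991.

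FANCE, which binds FANCD2, followed TGFB: it had 26.5, 25.1 and 22.6 CPM in TGFB, 31.4, 31.4 and 29.5 CPM in ALIS and 23.5, 24.4 and 23.8 CPM in the Combination, against 31.7, 32.9 and 31.96 CPM in CTL. The log2 fold change was -0.38 ± 0.06 with TGFB (adjusted p = 0.000214), -0.07 ± 0.06 with ALIS (adjusted p = 0.623) and -0.43 ± 0.06 with the Combination. FANCF, the adaptor next to FANCC and FANCE, went the other way and rose, with 6.91, 6.52 and 6.57 CPM in TGFB, 5.50, 6.06 and 5.07 CPM in ALIS and 6.54, 6.04 and 7.23 CPM in the Combination, against 5.21, 5.71 and 5.50 CPM in CTL. Its change was 0.28 ± 0.09 with TGFB (adjusted p = 0.0245) and 0.27 ± 0.09 with the Combination (adjusted p = 0.0301). With TGFB it was not called without CTL 1, CTL 3 or TGFB 4 (adjusted p up to 0.0876), and with the Combination not called without CTL 1, CTL 3, Combination 10 or Combination 12 (adjusted p up to 0.178). The call with the Combination was also lost with no low-count filter (adjusted p = 0.0635) and with only the compared groups fitted (adjusted p = 0.0845), and in both of these fits no member was called higher with the Combination. FANCF shares 11.3% of its exon bases with other annotated genes.

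FANCA and FANCG, which bind each other in the core complex, were lower with ALIS. FANCA had 53.5, 50.2 and 47.7 CPM in TGFB, 44.1, 44.1 and 41.9 CPM in ALIS and 37.4, 40.5 and 39.8 CPM in the Combination, against 50.9, 62.9 and 60.5 CPM in CTL. The change was -0.20 ± 0.07 with TGFB (adjusted p = 0.0424), -0.42 ± 0.07 with ALIS (adjusted p = 0.00334) and -0.57 ± 0.07 with the Combination (adjusted p = 2.29e-05). TGFB overlapped CTL, and with TGFB it was not called without CTL 2, CTL 3, TGFB 5 or TGFB 6 (adjusted p up to 0.193). FANCG had 53.3, 56.1 and 50.3 CPM in TGFB, 45.1, 44.7 and 42.3 CPM in ALIS and 40.9, 45.6 and 44.6 CPM in the Combination, against 50.8, 55.5 and 56.5 CPM in CTL. It fell, at -0.30 with ALIS (adjusted p = 0.00969) and -0.31 with the Combination (adjusted p = 0.000971), and had -0.03 with TGFB. The ALIS call was not called without CTL 3 or ALIS 9 (adjusted p up to 0.0653), and with the GC and length offset the TGFB value became -0.23 (adjusted p = 0.000437).

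FANCL, the ubiquitin ligase of the core complex, had -0.21 ± 0.07 with TGFB, -0.34 ± 0.07 with ALIS (adjusted p = 0.0133) and -0.53 ± 0.07 with the Combination. The TGFB change was not called without CTL 1, CTL 3, TGFB 4, TGFB 5 or TGFB 6 (adjusted p up to 0.11), and with ALIS not called without ALIS 7 or ALIS 8 (adjusted p up to 0.0662), and 19.7% of its exon bases are shared with other genes, VRK2 among them. FANCA likewise shares 23.6% with ZNF276. FANCB, a partner of FANCL, had -0.14 ± 0.07, 0.00 ± 0.07 and -0.09 ± 0.07 for TGFB, ALIS and the Combination, and FANCM, the motor protein that anchors the complex on DNA, had -0.11 ± 0.12, -0.18 ± 0.12 and -0.20 ± 0.12. Neither was called in these comparisons.

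FANCD2 and FANCI form the pair that the core complex marks with ubiquitin, and both fell with TGFB and with the Combination and neither passed with ALIS. FANCD2 had 42.2, 42.2 and 43.6 CPM in TGFB, 56.3, 57.3 and 60.9 CPM in ALIS and 43.04, 39.4 and 38.98 CPM in the Combination, against 69.6, 59.4 and 57.8 CPM in CTL. As for RAD51C, libraries given TGFβ lay together below all others and ALIS overlapped CTL. For FANCD2 the change was -0.54 ± 0.07 with TGFB (adjusted p = 1.89e-05), -0.10 ± 0.07 with ALIS (adjusted p = 0.484) and -0.62 ± 0.07 with the Combination (adjusted p = 4.78e-06). FANCI had 139, 137 and 147 CPM in TGFB, 137, 132 and 148 CPM in ALIS and 127, 118 and 118 CPM in the Combination, against 183, 154 and 149 CPM in CTL. Single-agent libraries lay just below CTL and the Combination below both. For FANCI it was -0.20 ± 0.07 with TGFB (adjusted p = 0.0376), -0.22 ± 0.07 with ALIS (adjusted p = 0.086) and -0.42 ± 0.07 with the Combination (adjusted p = 0.000265). With TGFB it was not called without CTL 1, TGFB 4 or TGFB 5 (adjusted p up to 0.154). In hg19 FANCD2 lies on chromosome 3 from 10068098 to 10143614.

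Across the steps, 9 members fell with each agent alone: ATM, CLSPN, EXO1, BRCA1, RAD54L, RAD51AP1, FANCA, FANCC and FANCL. Among these 9, only EXO1 kept both calls in every fit that left out 1 library. A further 12 fell with TGFB and were not called with ALIS, 3 (BRCA2, BRIP1 and FANCG) fell with ALIS and were not called with TGFB, and 3 (BLM, BARD1 and XRCC3) passed with the Combination alone. In these 3 comparisons 9 members were never called: ATR, H2AFX, MRE11A, RAD50, PALB2, RAD51B, RAD54B, FANCB and FANCM. The shares of all tested genes in these patterns were not computed, so the counts describe the members alone. Passing in 1 comparison and not in another does not show that the agents differ, since neither comparison tests that difference. TGFB was therefore also tested against ALIS directly. That comparison was added after the data were seen.

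TGFB against ALIS called 9 members lower and 6 higher. Of all tested genes, 43.9% were called, 21.5% lower and 22.3% higher, so the share of members called was near that of genes at large, and only the identity of the genes is described. The 12 members that fell with TGFB and were not called with ALIS were picked from the same TGFB and ALIS libraries. That choice favours lower values in TGFB than in ALIS, so the test is no independent support for the grouping. Of these 12, 8 were lower in TGFB than in ALIS. These were RAD51C (-0.58 ± 0.08, adjusted p = 3.32e-05), FANCD2 (-0.45 ± 0.07, adjusted p = 0.000124), RBBP8 (-0.40 ± 0.07, adjusted p = 0.000277), FANCE (-0.31 ± 0.06, adjusted p = 0.00103), CHEK2 (-0.30), MDC1 (-0.28), CHEK1 (-0.19) and XRCC2 (-0.17). The remaining 4, TOPBP1, NBN, RAD51D and FANCI, did not differ between the agents by this test, with values of -0.04, -0.14, -0.03 and 0.02. Also lower in TGFB was FANCC, at -0.31 ± 0.06 (adjusted p = 0.00054).

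Higher in TGFB than in ALIS were BRCA2 (0.73 ± 0.20, adjusted p = 0.00851), BRIP1 (0.38 ± 0.06, adjusted p = 0.000135), FANCG (0.27 ± 0.06, adjusted p = 0.00256), H2AFX (0.41), FANCF (0.27) and FANCA (0.22). All 3 members that fell with ALIS and were not called with TGFB are among them, and they too were picked from these libraries. BRIP1 was called in every fit that left out 1 library, and with the GC and length offset it was 0.43. FANCG and FANCA were each 0.04 with that offset and not called, XRCC2 was -0.06 and not called, and H2AFX, whose groups overlapped, turned to -0.15 (adjusted p = 0.0353). With the offset the split was 12 higher and 10 lower, where 49.5% of all tested genes were called. With no low-count filter the split was 3 higher and 9 lower, where 22.2% of all tested genes were called. BRCA2, H2AFX and FANCF were not called in that fit (adjusted p = 0.0748, 0.181 and 0.0646). FANCF was also not called without the 4 libraries that stand apart (adjusted p = 0.081). BRCA2 was not called without TGFB 4 (adjusted p up to 0.0541), H2AFX not called without TGFB 4, TGFB 5, ALIS 8 or ALIS 9 (adjusted p up to 0.142), FANCF not called without TGFB 4, TGFB 5, TGFB 6, ALIS 7 or ALIS 9 (adjusted p up to 0.141) and FANCA not called without TGFB 4, TGFB 5, ALIS 7, ALIS 8 or ALIS 9 (adjusted p up to 0.117). Among those lower in TGFB, CHEK1 was not called without TGFB 4, TGFB 5 or ALIS 9 (adjusted p up to 0.101) and XRCC2 not called without TGFB 4, TGFB 5, ALIS 8 or ALIS 9 (adjusted p up to 0.103). BRCA1, ATM and FANCI had 0.11, 0.09 and 0.02 and were not called. Without TGFB 4 the count of members called was 9, where 34.6% of all tested genes were called.

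**Figure D3:**
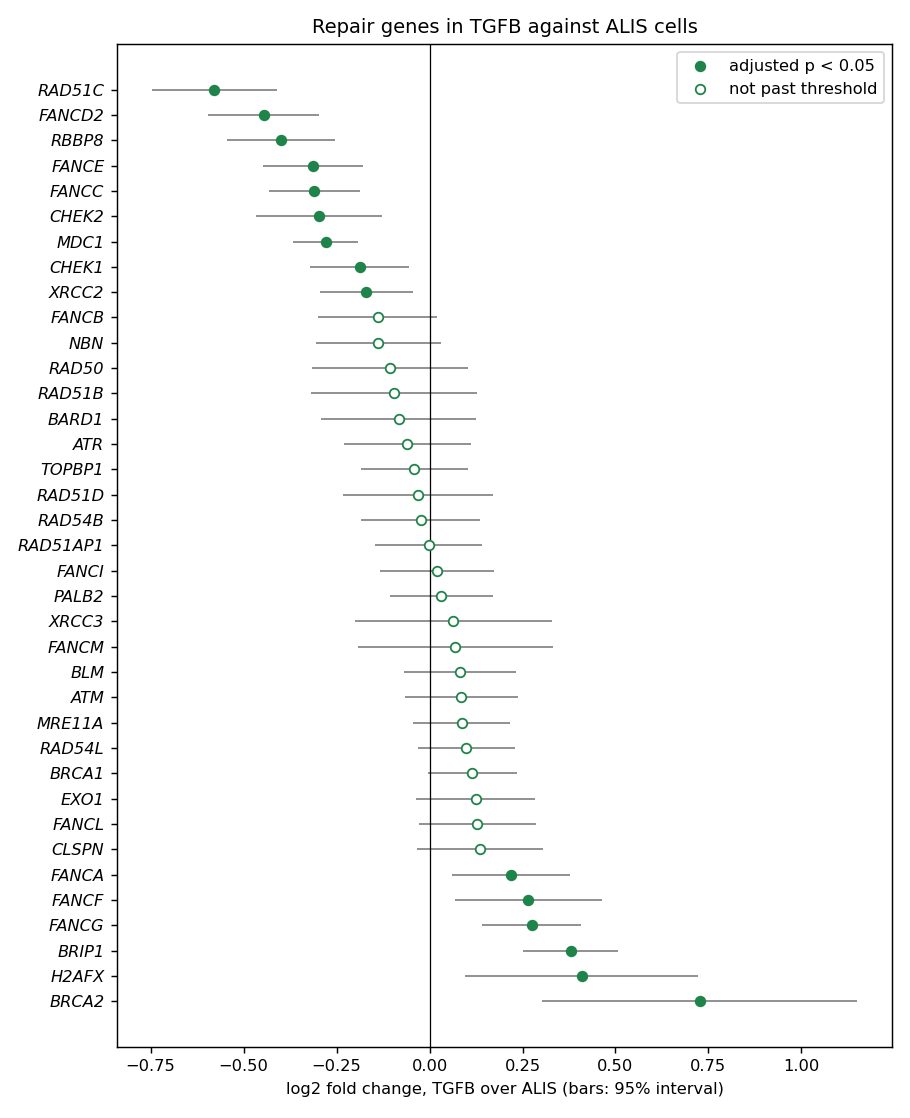
Log2 fold change in TGFB over ALIS for each of the 37 genes, ordered by size, with 95% intervals. RAD51C, FANCD2 and RBBP8 lie at the low end and BRCA2, H2AFX and BRIP1 at the high end, and 22 of the 37 did not pass an adjusted p under 0.05.

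The second agent was then compared with the first. Alisertib added to TGFβ, the Combination against TGFB, lowered 8 members and raised none, where 2.08% of all tested genes were called, 0.890% lower and 1.19% higher. The 8 were CLSPN (-0.43 ± 0.08, adjusted p = 0.0116), EXO1 (-0.41 ± 0.07, adjusted p = 0.0111), BRIP1 (-0.40 ± 0.06, adjusted p = 0.00289), FANCA (-0.36 ± 0.07, adjusted p = 0.0203), RAD54L (-0.32 ± 0.06, adjusted p = 0.0132), FANCL (-0.32 ± 0.07, adjusted p = 0.0399), FANCG (-0.29) and BRCA1 (-0.27, adjusted p = 0.024). All 8 were also lower with ALIS against CTL, a comparison that shares no library with this one. Of the 8 members given in every comparison, BRCA1 passed and the others did not: RBBP8 had -0.22 ± 0.07, FANCI -0.22 ± 0.07, CHEK1 -0.18 ± 0.06, FANCD2 -0.08 ± 0.07, ATM -0.01 ± 0.07, H2AFX -0.28 ± 0.15 and BRCA2 -0.53 ± 0.20. The count depended on single libraries and on the 4 that stand apart. It was 1 (BRIP1) without TGFB 4, 3 without TGFB 5, 5 without TGFB 6, 2 without Combination 11 and 3 without Combination 12, and it was 18 without the 4 libraries that stand apart, where 6.92% of all tested genes were called. With only the compared groups fitted FANCL was not called (adjusted p = 0.0667). The count was 19 both with a term for those 4 libraries and with the GC and length offset, where 8.85% and 8.18% of all tested genes were called.

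TGFβ added to alisertib, the Combination against ALIS, lowered 18 members and raised 1, where 38.4% of all tested genes were called, 19.0% lower and 19.4% higher. The largest were RBBP8 (-0.62 ± 0.07, adjusted p = 4.9e-06), RAD51C (-0.57 ± 0.08, adjusted p = 4.26e-05), FANCC (-0.53 ± 0.06, adjusted p = 3.81e-06), FANCD2 (-0.52 ± 0.07, adjusted p = 3.12e-05), BARD1 (-0.38 ± 0.10, adjusted p = 0.00666) and CHEK1 (-0.37 ± 0.06, adjusted p = 0.000309). BRCA1 (-0.15 ± 0.06, adjusted p = 0.0448) and FANCI (-0.20 ± 0.07, adjusted p = 0.0387) passed narrowly. BRCA1 was not called without ALIS 8, ALIS 9, Combination 11 or Combination 12 (adjusted p up to 0.14), and FANCI was not called without ALIS 7, ALIS 9, Combination 11 or Combination 12 (adjusted p up to 0.122). BRCA1 also missed the threshold under DESeq2 (adjusted p = 0.0549) and with the offset (adjusted p = 0.0557), as RAD51D did with the offset (adjusted p = 0.0862). ATM had 0.07 ± 0.07, BRCA2 0.20 ± 0.20 and H2AFX 0.13 ± 0.15, none of them called, and with the GC and length offset H2AFX turned to -0.38 (adjusted p = 1.25e-05). The member that rose was FANCF at 0.25 ± 0.09, although its groups overlapped, and it was not called without ALIS 7, ALIS 9, Combination 10 or Combination 12 (adjusted p up to 0.234). It was also not called with no low-count filter, with only the compared groups fitted or without the 4 libraries that stand apart (adjusted p = 0.0737 to 0.112).

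**Figure D4:**
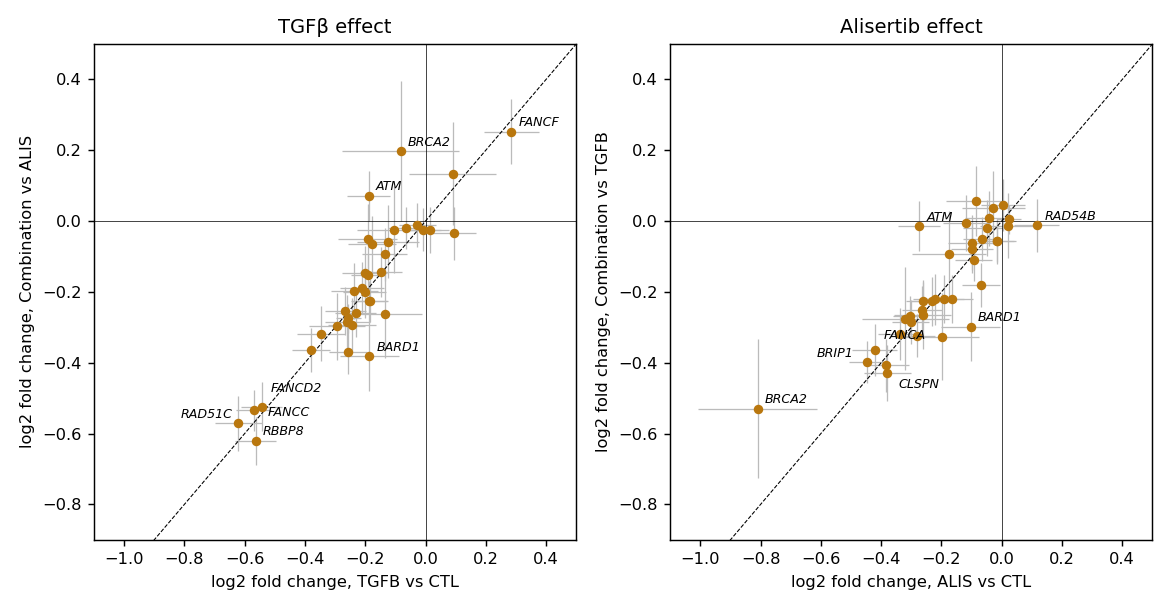
Each agent's log2 fold change alone (x axis) and on top of the other agent (y axis) for the 37 genes, with bars of 1 SE and a dashed line of equality. The 2 axes of each panel share no library. RAD51C, RBBP8, FANCC and FANCD2 lie low on both axes for TGFβ, and BRIP1, CLSPN and FANCA for alisertib.

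Because the 2 axes of each panel share no library, they can be set side by side. The effect of TGFβ had the same sign alone and on top of alisertib in 33 of the 37 members, and 18 were called in the same direction in both. The effect of alisertib had the same sign alone and on top of TGFβ in 32 of the 37, and 8 were called in the same direction in both. Across the 37 genes the values correlated at a Pearson r of 0.894 and a Spearman rho of 0.865 for TGFβ, and at 0.855 and 0.856 for alisertib. These describe the genes, which are not independent replicates, and the 4 libraries that stand apart are in them. Neither these counts nor the correlations were computed over all tested genes, so they do not set the members apart from genes at large.

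Whether 1 agent changes the effect of the other was tested as the interaction, which takes the change of the Combination against TGFB minus that of ALIS against CTL. Of all tested genes, 0.282% passed, 0.165% with a negative and 0.117% with a positive value. None of the 37 members passed by the edgeR test, none passed by DESeq2, and 1, ATM, had an unadjusted p under 0.05, where 5.69% of all tested genes did. The 4 largest values were 0.28 ± 0.28 for BRCA2, 0.26 ± 0.10 for ATM (adjusted p = 0.65), -0.20 ± 0.14 for BARD1 and 0.14 ± 0.14 for RAD50. BRCA1 had 0.04 ± 0.08, RBBP8 -0.06 ± 0.10, FANCD2 0.02 ± 0.10, FANCI 0.00 ± 0.10, CHEK1 -0.11 ± 0.09 and H2AFX 0.04 ± 0.21. For 35 of the 37 members the 95% interval lay within 0.5 on the log2 scale on either side of 0, which leaves interactions of smaller size undecided. With a term for the 4 libraries that stand apart, ATM passed at 0.26 (adjusted p = 0.0491).

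Single libraries moved the counts of calls against CTL unequally. For the Combination, 25 of the 28 calls held in every fit that left out 1 library, and for TGFB 10 of 22: CHEK1, CHEK2, MDC1, RBBP8, EXO1, RAD51C, RAD51AP1, FANCC, FANCE and FANCD2. For ALIS 4 of 12 held, namely EXO1, BRCA1, BRIP1 and FANCA. How many calls among all tested genes held in every such fit was not computed, so these counts describe the members alone. Across these fits the share of all tested genes called was 30.9% to 36.0% for TGFB, against 38.6% with all libraries. That share ran from 3.41% to 12.3% for ALIS, against 6.74%, and from 31.7% to 38.2% for the Combination, against 39.7%. The ALIS count was also 5 when only the ALIS and CTL libraries were fitted, and 19 with the GC and length offset, where 17.1% of all tested genes were called. With that offset the TGFB split was 4 higher and 21 lower, where 46.9% of all tested genes were called. Fitting only the ALIS and CTL libraries ended the ALIS calls of ATM, CLSPN, BRCA2, RAD54L, RAD51AP1, FANCC and FANCL (adjusted p = 0.0536 to 0.128). Fitting only the TGFB and CTL libraries ended the TGFB calls of CLSPN, NBN, RAD54L, FANCA and FANCI (adjusted p = 0.0506 to 0.116). Under DESeq2 the TGFB calls of ATM and FANCI were lost (adjusted p = 0.0791 and 0.0569) and the Combination call of ATM (adjusted p = 0.0533). With the size factors of DESeq2 in edgeR, ATM, FANCL and FANCI missed with TGFB (adjusted p = 0.0508 to 0.0674). FANCL also missed there with no low-count filter (adjusted p = 0.0507) and with the offset (adjusted p = 0.178).

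Levels can be compared between genes only per length, for which the authors' deposited RPKM values were used. In CTL they ranged from 0.974 ± 0.0518 for RAD51B to 19.4 ± 1.96 for FANCI (SD, n = 3). FANCI, CLSPN (18.1 ± 2.09), H2AFX (17.8 ± 3.39) and MRE11A (16.8 ± 1.17) were the highest, and neighbours in this order differed by less than 1 SD. The lowest, after RAD51B, were FANCF (1.54 ± 0.0844), FANCM (1.54 ± 0.162), XRCC3 (1.69 ± 0.230) and BRCA2 (1.75 ± 0.465). This order depends on the length given per gene, which was 7477 bases for RAD51B and 7585 for XRCC3. Whether that length matches the transcripts expressed here was not tested. XRCC3 also shares 76.7% of its exon bases with KLC1. Within the BRCA mediators BRCA1 stood highest at 6.09 ± 0.345 RPKM in the Combination and 8.79 ± 0.440 in CTL, and BRCA2 lowest at 1.09 ± 0.125 in the Combination and 1.75 ± 0.465 in CTL. FANCI exceeded its partner FANCD2 in every group, at 13.7 ± 0.619 against 4.26 ± 0.257 RPKM in the Combination and 19.4 ± 1.96 against 6.89 ± 0.621 in CTL.

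**Figure D5:**
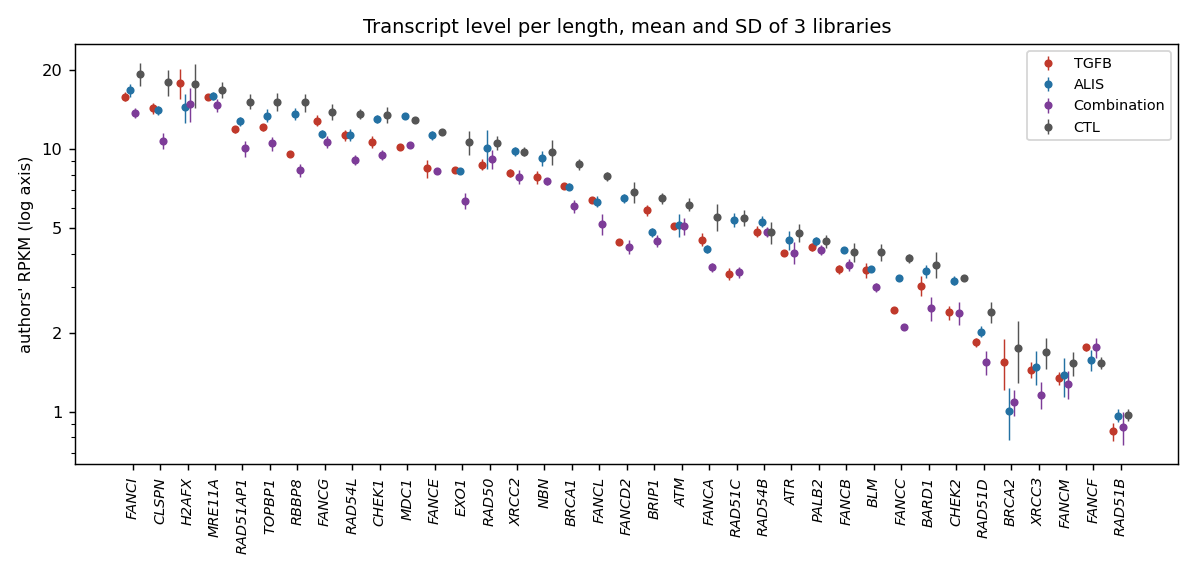
The authors' RPKM of the 37 genes on a log axis, as mean and SD of 3 libraries for TGFB, ALIS, the Combination and CTL, ordered by the CTL level. CTL means span from 0.974 for RAD51B to 19.4 for FANCI, a wider range than any gene spans between groups.

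Genes of the same pathways outside the member list differed by list. Of 20 other homologous recombination genes, 9 fell and 1 rose with TGFB, 3 fell and 1 rose with ALIS, and 11 fell and 2 rose with the Combination. The largest in the Combination were RMI1, a partner of BLM, at -0.91 ± 0.07, and DNA2, a resection nuclease, at -0.79 ± 0.07. RMI1 had -0.73 with TGFB, and DNA2 had -0.49 with TGFB and -0.32 with ALIS. The largest called with ALIS was RMI2, at -0.33 ± 0.08. Of 15 other Fanconi pathway genes, 4 fell and 2 rose with TGFB, 1 fell with ALIS, and 4 fell and 1 rose with the Combination, with a median of 0.01 for the last against -0.43 for the members. These Fanconi counts lie near the shares of all tested genes given above, 38.6%, 6.74% and 39.7%, and are no result about that list. UBE2T, the ubiquitin-conjugating enzyme that works with FANCL, had -0.56 ± 0.07 with TGFB and -0.72 ± 0.07 with the Combination, REV3L, the catalytic subunit of polymerase zeta, had -0.57 ± 0.08 and -0.66 ± 0.08, and USP1, which removes ubiquitin from FANCD2, had -0.26 ± 0.07 with ALIS. Of 20 other checkpoint and break response genes, 10 fell and 2 rose with TGFB, 3 fell and 1 rose with ALIS, and 12 fell and 3 rose with the Combination. TIPIN, of the fork protection complex, had -0.81 ± 0.10 with TGFB and -0.84 ± 0.10 with the Combination, CDC25A, a phosphatase that CHEK1 opposes, had -0.57 ± 0.08 and -0.73 ± 0.08, and with ALIS the largest were RIF1 (-0.49 ± 0.12) and TIMELESS (-0.39 ± 0.05), the partner of TIPIN.

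Among 11 genes of end joining, another route of break repair, 3 fell and 1 rose with TGFB, 2 fell with ALIS, and 3 fell and 2 rose with the Combination. The TGFB and Combination counts lie near the shares of all tested genes, 38.6% and 39.7%. XRCC1 rose with TGFB (0.57 ± 0.11) and LIG3 fell (-0.35 ± 0.06), and PARP1 and LIG3 fell with ALIS (-0.27 ± 0.04 and -0.20 ± 0.06) and with the Combination (-0.49 ± 0.04 and -0.54 ± 0.06).

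S phase genes fell with the members in each comparison with CTL, and G2 and M phase genes did so with TGFB and the Combination but not with ALIS. The part of either list in the result was not tested. Of 15 S phase genes, 8 fell with TGFB, 11 with ALIS and 13 with the Combination, with medians of -0.21, -0.35 and -0.57. MCM6, of the replicative helicase, had -0.49 ± 0.07 with TGFB, -0.55 ± 0.07 with ALIS and -1.08 ± 0.07 with the Combination. TYMS, which makes thymidylate, had -0.41 ± 0.05 with TGFB, and GINS2, of the replisome, had -0.50 ± 0.07 with ALIS and -0.85 ± 0.07 with the Combination. Of 15 G2 and M phase genes, 12 fell with TGFB and 13 with the Combination, with medians of -0.45 and -0.37, whereas with ALIS none fell, 2 rose and the median was 0.05. AURKA, which encodes the kinase that alisertib inhibits, had -0.71 ± 0.06 with TGFB and 0.23 ± 0.06 with ALIS, CCNA2, cyclin A2, had -0.68 ± 0.07 with TGFB and -0.72 ± 0.07 with the Combination, CENPF, a centromere protein, had -0.57 ± 0.18 with the Combination, and KIF20A, a mitotic kinesin, had 0.31 ± 0.06 with ALIS. CENPF also had a lower mean in ALIS, at 328 ± 89.7 CPM against 505 ± 96.4 CPM in CTL (SD, n = 3). It was not called there. With ALIS, 6 of the 15 G2 and M phase genes had negative values, the lowest being -0.62. With alisertib added to TGFβ, 11 of the 15 S phase genes fell and 2 of the 15 G2 and M phase genes rose.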

How the data were processed

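Libraries were made from RNA of 12 samples with TruSeq RNA v2 reagents, per the labels' protocols. This chemistry keeps no strand information. The submitters' processing notes name the build hg19 and the tools bcl2fastq, TopHat, Subread and featureCounts, without versions here. In the deposited table, the authors give raw read counts for each gene beside RPKM values. These scale the counts to library size and to the length that the table names coding length. RPKM served only to compare levels between genes.

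From the deposited counts, genes were kept by filterByExpr of edgeR 4.0.16 (R 4.3.3), which left 20571. Libraries were scaled with TMM factors, and all 12 entered 1 robust quasi-likelihood fit with 8 residual degrees of freedom. The 5 planned pairwise comparisons and the interaction were tested, and TGFB against ALIS was added after the data were seen. Each p-value was adjusted by Benjamini-Hochberg over the tested genes. Each SE is the absolute log2 fold change divided by the root of F. The fit was run on counts simulated with the same dispersion for every gene and without the deviation of the 4 libraries that stand apart. That run checks the code and cannot speak to the spread in these libraries.

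The 37 members and the other lists were chosen with earlier results of these data known, and some list genes, mismatch repair among them, are not reported here. By a set rule, all members are accounted for by step, the 6 largest called in each comparison get full values, 8 members are given in every comparison, and up to 2 called genes are named in each other list for the comparisons with CTL. Alternatives were DESeq2 1.42.0, its size factors, no filter on low counts, a fit of the compared groups alone, a term for the 4 libraries that stand apart, an offset for GC content and length, and each library left out. GC content was known for 19649 of the tested genes. Reads of overlapping genes cannot be told apart, and shared exon bases were taken from GENCODE v29. Promoters are RefSeq windows of GRCh38.p14, and hg19 coordinates are those of the table.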

Additional observations from a re-analysis of the deposited data

How the results depend on the processing

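No paired analysis was possible because the replicate numbers run from 1 to 12 and no number is shared between groups. The number of members called as reported, 22 for TGFB, 12 for ALIS and 28 for the Combination against CTL, 8 for the Combination against TGFB, 19 against ALIS, 15 for TGFB against ALIS and 0 for the interaction, stayed within 1.5 times under DESeq2, its size factors and no filter. ALIS against CTL gave 5 with the compared groups fitted alone and 19 with the GC and length offset, where 3.20% and 17.1% of all tested genes were called. The Combination against TGFB gave 19 with the term for the 4 libraries that stand apart, 19 with the offset and 18 without those 4 libraries. In the same order, 8.85%, 8.18% and 6.92% of all tested genes were called. The interaction gave 1 (ATM) with the term, where 1.86% of all tested genes were called. In every case the cause was not tested. With 1 library left out the counts were 12 to 19 for TGFB, 5 to 11 for ALIS and 25 to 30 for the Combination against CTL, 1 to 6 for the Combination against TGFB, 15 to 18 against ALIS, 9 to 14 for TGFB against ALIS and 0 to 0 for the interaction. For the pairwise comparisons in the same order, the share of all tested genes called was 30.9% to 36.0%, 3.41% to 12.3%, 31.7% to 38.2%, 0.726% to 1.15%, 29.7% to 37.9% and 34.4% to 40.9%. 

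Values that changed sign were mostly near 0. The interaction of FANCI was -0.012 with DESeq2, -0.012 with its size factors, -0.0030 with no filter, -0.0024 with the term, -0.024 with the offset and -0.059 without the 4 libraries. That of FANCD2 was -0.0039 with the offset and -0.069 without the 4 libraries, and that of BRCA1 was -0.0047 without them. H2AFX with the offset was -0.36 for TGFB against CTL, -0.38 for the Combination against ALIS, -0.15 for TGFB against ALIS and -0.018 for the interaction. With 1 library left out, ATM ranged from -0.010 to 0.13 for the Combination against ALIS and from -0.066 to 0.020 against TGFB. BRCA2 ranged from -0.28 to 0.13 and H2AFX from -0.051 to 0.20 for TGFB against CTL, CHEK1 from -0.10 to 0.0029 for ALIS against CTL, and FANCI from -0.017 to 0.063 for TGFB against ALIS. Interactions ranged from -0.014 to 0.066 for BRCA1, -0.068 to 0.055 for FANCD2, -0.097 to 0.042 for FANCI and -0.066 to 0.18 for H2AFX. Each group had 3 libraries and each library at least 93701658 counts. Depth was not varied.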
